A study of Mus musculus with 9 samples.

Results

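The aryl hydrocarbon receptor and its classical targets were followed in cultured neonatal mouse ovaries by every array probe of 10 genes: Ahr and Arnt, which encode the receptor and its partner, and the targets Cyp1a1, Cyp1a2, Cyp1b1, Ahrr, Tiparp, Nqo1, Aldh3a1 and Ugt1a6a. The genes were chosen by name, with earlier results of these data known. All 10 were on the array, with 15 probes among 25697 probes for 17889 named genes. Of these, 6 genes had 1 probe, 3 had 2 and Ugt1a6a had 3, and probes of a gene are numbered here from the brightest down. Ovaries of Swiss mice at postnatal day 3 to 4 were kept for 96 h on inserts over medium with fetal calf serum, basic fibroblast growth factor, leukemia inhibitory factor and stem cell factor. Ovaries received benzo[a]pyrene (BaP) at 1 uM, 7,12-dimethylbenz[a]anthracene (DMBA) at 50 nM, or 0.01% acetone as the control. Each of the 3 groups had 3 Illumina Mouse Ref-8 beadchip arrays of total RNA. The labels do not say whether the medium of treated ovaries also held 0.01% acetone. Whether replicates were separate animals, litters or pools is not given in the labels, and the p-values reflect only the array-to-array spread, part of which may be technical. The submitters chose the DMBA dose in pilot work to be overtly toxic, and the doses of the compounds differ, so the treated groups are compared as dosed and not at a matched dose.

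The receptor is a transcription factor that waits in the cytosol bound to Hsp90 and co-chaperones. A ligand such as a polycyclic aromatic hydrocarbon sends it to the nucleus, where it pairs with Arnt and binds DNA at a short core, GCGTG. Its targets include the CYP1 enzymes, which oxidise hydrocarbons to reactive metabolites, enzymes that conjugate or reduce the products, and the repressor Ahrr, which competes with the receptor for Arnt. In mouse ovary the receptor is known for its part in the loss of primordial follicles after hydrocarbon exposure.

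Median signals before normalisation were 94.7, 104.1 and 99.4 on the BaP arrays and 126, 117.1 and 105.2 on the DMBA arrays. On the acetone arrays they were 105.8, 133.7 and 109.9, so the BaP arrays were the dimmest of the 9. On each array 53.6% to 57.7% of probes stood above the array floor. That floor is the 95th percentile of 1330 probes for olfactory and vomeronasal receptor genes, taken as genes with little transcript in ovary, and it lay between 6.16 and 6.23 on the log2 scale used throughout (background-corrected, quantile-normalised signal). Oocyte markers stood above the floor on all 9 arrays for 9 of 10 genes, granulosa markers for 5 of 6 and stroma markers for 7 of 7, while Kitl among the granulosa markers did so on none. Of 5 liver markers, Apoa1 was above it on all 9 arrays and Alb, Ttr, Serpina1a and Cyp2e1 were above it on none. DMBA replicate 3 stood apart from its group: its levels correlated at 0.988 and 0.991 with the other DMBA arrays, against 0.996 between those, so values without it are given beside the DMBA results. Leaving it out raised the calls over all 25697 probes from 270 to 1132 for DMBA against acetone. For BaP against DMBA they rose from 288 to 892.

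Of the 15 member probes, 6 probes of 5 genes (Cyp1b1, Ugt1a6a probes 1 and 2, Nqo1 probe 1, Arnt probe 1 and Ahrr) stood above the floor on all 9 arrays. The other 9 did not: 7 were under it on every array, and Aldh3a1 and Arnt probe 2 exceeded it on 1 DMBA array each. Thus 5 genes, Cyp1a1, Cyp1a2, Tiparp, Aldh3a1 and Ahr itself, had no probe measured above the floor throughout. Levels of one probe cannot be set against those of another on this array, and values under the floor have no order.

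BaP cultures differed from acetone cultures in Ugt1a6a, Nqo1 and Ahrr. Ugt1a6a probe 1 was 2.33-fold higher, Nqo1 probe 1 was higher by 0.52 on the log2 scale, and Ahrr was higher by 0.28. The 3 called probes (adjusted p under 0.05, limma with Benjamini-Hochberg adjustment over all probes) were all higher, as against 4.9% of all probes called higher and 9.8% called in either direction. Cyp1a1, the inducible monooxygenase most used as a reporter of the receptor, stayed under the floor on all 9 arrays. In bulk ovaries, fewer cells of a type and less RNA per cell cannot be told apart.

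The promoters of the 3 genes higher with BaP are shown beside that of Cyp1a1, from RefSeq on GRCm38.p6, each from 250 bases before to 50 after the start of the gene, 5′ to 3′ on the gene's strand, with the receptor core in capitals. Cyp1a1 lies at chr9:57697363-57697662 (plus strand), Ahrr at chr13:74292282-74292581 (minus strand), Nqo1 at chr8:107403156-107403455 (minus strand) and Ugt1a6a at chr1:88134559-88134858 (plus strand).
Ugt1a6a: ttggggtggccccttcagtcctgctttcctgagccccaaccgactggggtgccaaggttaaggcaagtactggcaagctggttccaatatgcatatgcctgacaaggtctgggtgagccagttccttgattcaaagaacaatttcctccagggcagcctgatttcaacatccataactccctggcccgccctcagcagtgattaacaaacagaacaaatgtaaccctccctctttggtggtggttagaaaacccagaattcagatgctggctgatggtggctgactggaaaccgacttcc
Nqo1: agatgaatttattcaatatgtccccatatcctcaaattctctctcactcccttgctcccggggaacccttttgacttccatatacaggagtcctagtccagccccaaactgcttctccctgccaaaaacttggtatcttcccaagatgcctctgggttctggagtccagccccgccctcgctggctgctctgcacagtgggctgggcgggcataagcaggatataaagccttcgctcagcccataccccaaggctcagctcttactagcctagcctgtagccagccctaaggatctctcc
Ahrr: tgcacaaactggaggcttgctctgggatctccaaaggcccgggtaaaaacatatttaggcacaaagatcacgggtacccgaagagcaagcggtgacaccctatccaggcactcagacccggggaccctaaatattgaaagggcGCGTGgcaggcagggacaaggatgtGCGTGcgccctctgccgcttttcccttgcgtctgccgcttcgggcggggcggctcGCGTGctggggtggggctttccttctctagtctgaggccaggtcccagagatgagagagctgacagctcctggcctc
Cyp1a1: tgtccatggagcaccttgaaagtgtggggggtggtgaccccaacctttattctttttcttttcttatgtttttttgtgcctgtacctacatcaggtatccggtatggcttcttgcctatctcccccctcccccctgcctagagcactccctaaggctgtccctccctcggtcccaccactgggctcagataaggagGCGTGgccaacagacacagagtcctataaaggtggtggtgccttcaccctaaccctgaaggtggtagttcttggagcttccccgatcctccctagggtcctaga

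GCGTG was searched on both strands (CACGC on the other strand). Of the 10 genes, 8 had a promoter sequence, Aldh3a1 and Ahr having none in the table, and 5 of these 8 held the core, as did 32.4% of 32851 mouse promoters of the same length. Ahrr held 3 cores, at 107, 82 and 27 bases before the start, and Cyp1a1 held 1 at 54 bases before it. Cyp1b1 held 1 at 76 bases, Tiparp 1 at 170 and Arnt 1 at 29 bases before the start. Nqo1, Ugt1a6a and Cyp1a2 held none in this window, so the 2 genes with the larger differences had no core in the bases shown. The longer form TNGCGTG, which contains the core, matched only Ahrr among the 8 promoters, and matched 5.07% of all promoters. The antioxidant-type motif TGACNNNGC matched only the Arnt promoter, 2 times, and 12.4% of all promoters.

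Ugt1a6a encodes a UDP-glucuronosyltransferase that conjugates phenols, including hydroxylated hydrocarbons. Its probe 1 had levels of 8.14, 8.39 and 8.46 in BaP cultures, 7.51, 7.85 and 7.83 in DMBA cultures, and 7.45, 6.94 and 6.93 in acetone cultures. All BaP arrays were above all DMBA arrays, and all DMBA arrays were above all acetone arrays. In the deposited signals before normalisation, BaP arrays (218.2, 292.5 and 272.2) and DMBA arrays (268.1, 296.7 and 231) overlapped, and both lay above the acetone arrays (204.1, 205.4 and 148.4). BaP against acetone gave a difference of 1.22 (SE 0.11, 95% interval 0.99 to 1.46, limma adjusted p = 5.11e-08). In the authors' deposited table, whose ratios run acetone over compound, this probe had 0.495 for BaP, with an unadjusted p of 7.21e-06.

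Ugt1a6a probe 2 had levels of 7.01, 7.28 and 6.94 in BaP cultures, 6.68, 6.81 and 7.27 in DMBA cultures, and 6.67, 6.74 and 6.97 in acetone cultures. The groups overlapped, and BaP against acetone gave 0.28 (95% interval 0.08 to 0.49, limma adjusted p = 0.0674). That probe passed the test without acetone replicate 3 (0.37, limma adjusted p = 0.0252) and without BaP replicate 3 (0.35, limma adjusted p = 0.0285). Probe 3 lay under the floor on every array, between 5.84 and 6.13. The 3 probes of the gene thus disagree in size. Genes of the Ugt1a locus share their later exons, and the probe sequences were not used here, so which transcripts of the locus each probe reads cannot be told apart.

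Nqo1 encodes a quinone reductase that is a target of both the receptor and the oxidative stress factor Nrf2. Its probe 1 had levels of 7.03, 6.98 and 7.03 in BaP cultures, 6.72, 6.66 and 6.69 in DMBA cultures, and 6.40, 6.55 and 6.52 in acetone cultures. The 3 groups did not overlap, and the spread within the BaP group was 0.03 (SD, n = 3). BaP against acetone gave 0.52 (SE 0.08, 95% interval 0.35 to 0.69, limma adjusted p = 1.23e-04). Before normalisation the deposited signals overlapped, at 125.7, 138.4 and 130 with BaP and 111, 157.7 and 121.1 with acetone. Their means were 131.4 with BaP, 144.5 with DMBA and 129.9 with acetone, so the separation of the groups was seen only after normalisation. In the authors' deposited table the acetone-over-BaP ratio was 0.774, with an unadjusted p of 3.53e-07. Nqo1 probe 2 lay under the floor on every array, between 5.87 and 6.03.

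Ahrr encodes the receptor's repressor. Its levels were 6.73, 6.54 and 6.50 in BaP cultures, 6.46, 6.25 and 6.33 in DMBA cultures, and 6.31, 6.27 and 6.36 in acetone cultures. All BaP arrays were above the other arrays, though by little over the floor, and under a stricter floor set from the mode of each array Ahrr counted as measured on only 4 of 9 arrays. BaP against acetone gave 0.28 (SE 0.09, 95% interval 0.10 to 0.45, limma adjusted p = 0.0417). The deposited signals before normalisation overlapped, at 110.4, 113.9 and 106.2 with BaP and 105.8, 130.2 and 112.5 with acetone. Their mean was lower with BaP (110.2) than with acetone (116.2), so the rise was seen only after normalisation. The direction held in all 15 alternative settings, but the test was passed in 3 of them, with adjusted p from limma between 0.03 and 0.184. The authors' deposited log2 values gave a limma adjusted p of 0.0712.

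**Figure D1:**
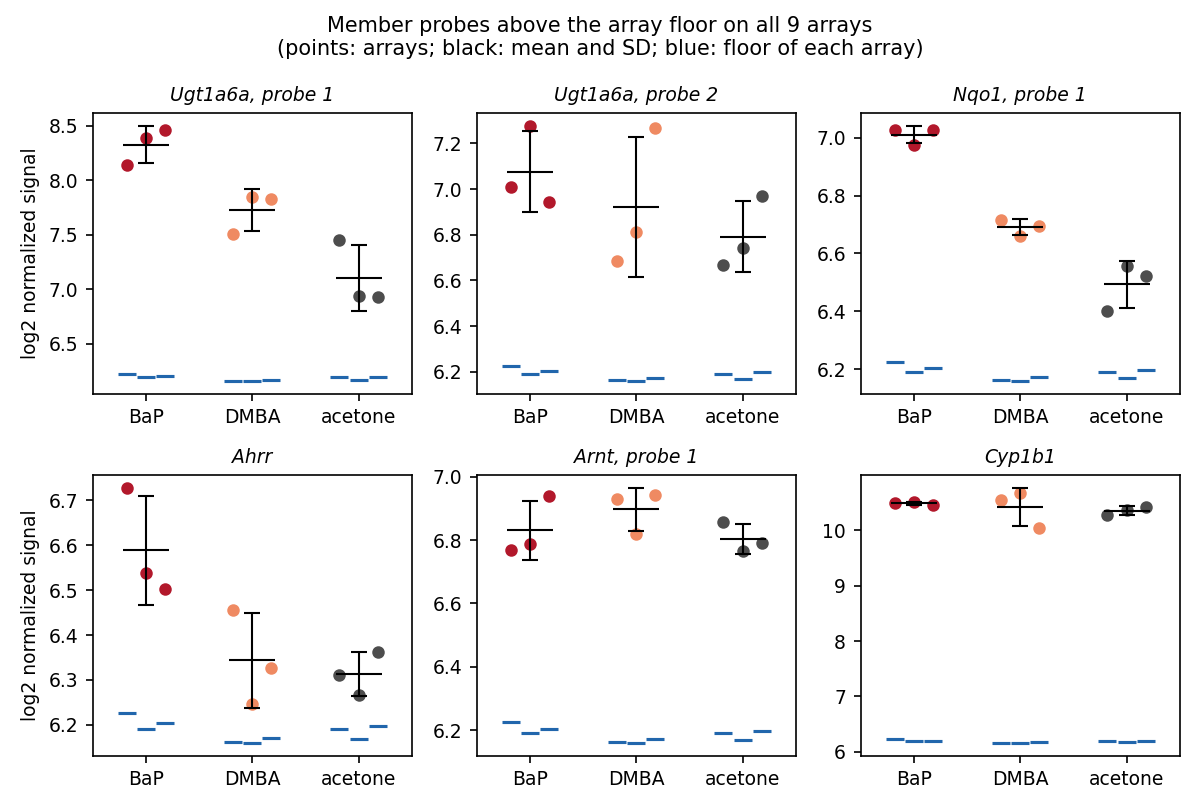
Log2 normalised signal (vertical axis, own range in each panel) of the 6 member probes above the array floor on all 9 arrays, by group: BaP, DMBA and acetone. Points are arrays, black bars the mean and SD of 3 arrays, blue dashes each array's floor; for Ugt1a6a probe 1 and Nqo1 probe 1 the 3 groups do not overlap, and Ahrr sits close to the floor.

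Cyp1b1, the CYP1 enzyme of extrahepatic and steroid-producing tissue, was far above the floor in every group. Its levels were 10.49, 10.51 and 10.46 in BaP cultures, 10.56, 10.68 and 10.04 in DMBA cultures, and 10.28, 10.36 and 10.43 in acetone cultures. The BaP arrays were all above the acetone arrays, but the difference of 0.13 (95% interval -0.04 to 0.30) did not pass the test (limma adjusted p = 0.418). With arrays scaled by their medians in place of quantile normalisation the difference was -0.33 (limma adjusted p = 0.0665), against a median shift of -0.36 over all probes above the floor, so its direction depends on the scaling. DMBA against acetone gave 0.07 (95% interval -0.24 to 0.38, limma adjusted p = 0.932), and 0.26 (limma adjusted p = 0.111) without DMBA replicate 3, which was the lowest of the 9 arrays.

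Arnt, the dimerisation partner, had probe 1 levels of 6.77, 6.79 and 6.94 in BaP cultures, 6.93, 6.82 and 6.94 in DMBA cultures, and 6.86, 6.77 and 6.79 in acetone cultures. The groups overlapped, with a BaP difference of 0.03 (95% interval -0.15 to 0.20, limma adjusted p = 0.915) and a DMBA difference of 0.09 (95% interval -0.08 to 0.26, limma adjusted p = 0.776; 0.07 without DMBA replicate 3). Arnt probe 2 ranged between 5.83 and 6.18 and exceeded the floor only on DMBA replicate 1.

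The 9 probes at or near the floor gave no measured response. Cyp1a1 had levels of 5.91, 5.99 and 5.81 in BaP cultures, 5.92, 5.85 and 6.06 in DMBA cultures, and 5.87, 6.04 and 5.84 in acetone cultures. These groups overlapped fully, and the BaP difference was -0.01 (95% interval -0.19 to 0.17, limma adjusted p = 0.966). Cyp1a2, a mainly hepatic CYP1 enzyme, had both probes under the floor on all arrays. Ahr had levels of 5.82, 5.87 and 5.97 in BaP cultures, 5.89, 5.93 and 5.91 in DMBA cultures, and 5.93, 5.94 and 5.94 in acetone cultures, all under the floor. Tiparp, a mono-ADP-ribosyltransferase that limits receptor activity, lay between 5.74 and 6.04, and Aldh3a1, an aldehyde dehydrogenase, between 5.87 and 6.25.

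Each of these 9 probes varied over the 9 arrays by 0.15 to 0.38, beside a median range of 0.29 for the olfactory and vomeronasal probes. Their BaP differences ran between -0.11 and 0.11, with a smallest limma adjusted p of 0.519, and their DMBA differences between -0.03 and 0.23, with a smallest limma adjusted p of 0.27. At such signals a change in transcript that kept the probe under the floor was not detectable. The absence of signal for Cyp1a1, Cyp1a2 and Tiparp is therefore not a measurement that these genes did not respond.

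**Figure D2:**
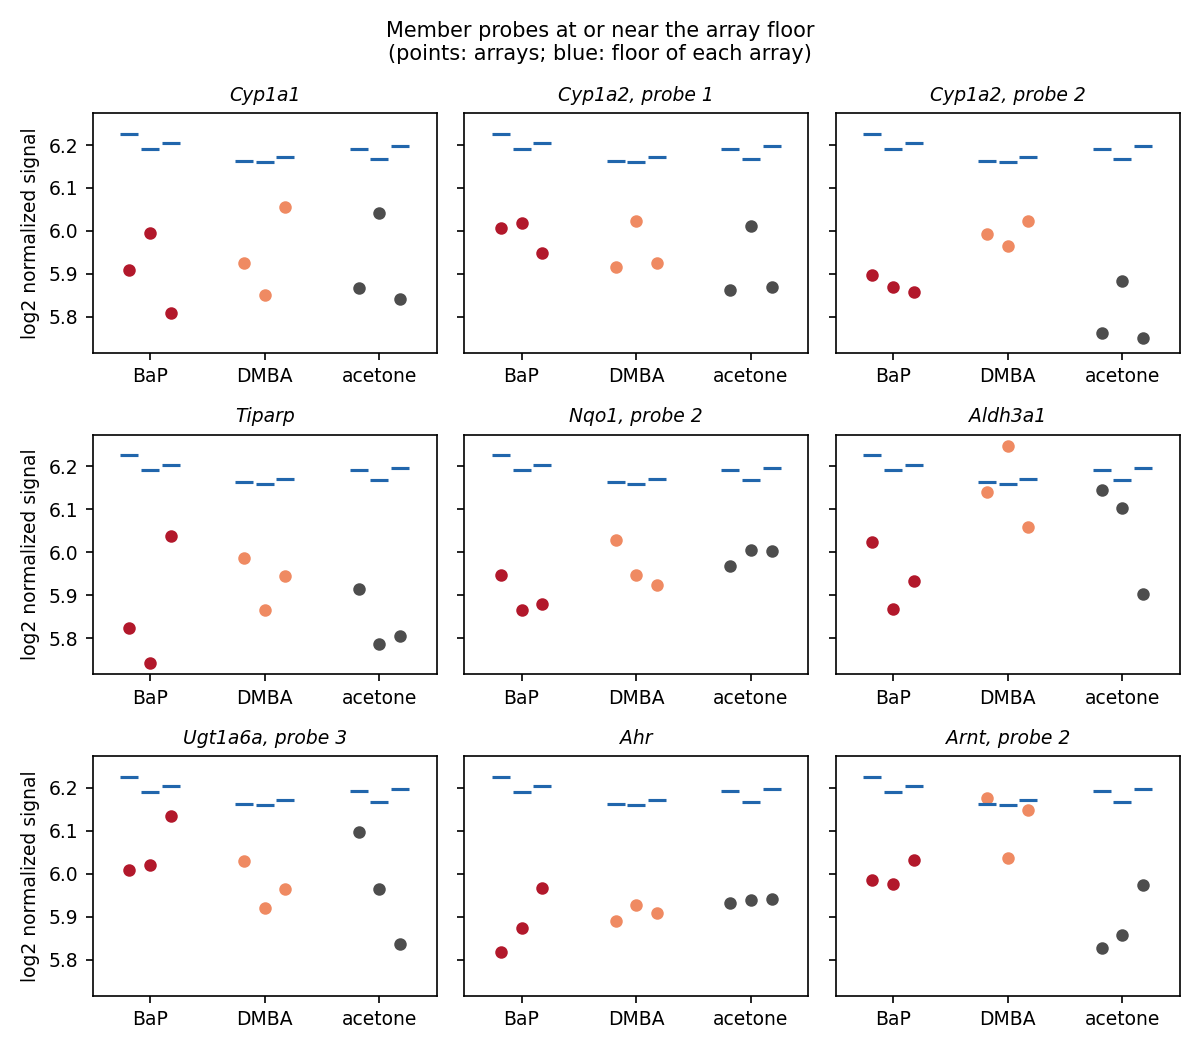
Log2 normalised signal (vertical axis, shared range) of the 9 member probes not above the array floor throughout, by group: BaP, DMBA and acetone. Points are arrays and blue dashes each array's floor; only 1 DMBA array each of Aldh3a1 and Arnt probe 2 is above its floor.

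In DMBA cultures, none of the 15 member probes passed the test against acetone, where 1.05% of all probes did and 0.802% were higher. At an unadjusted p under 0.05 limma gave 4 member probes (Ugt1a6a probe 1, Nqo1 probe 1, Arnt probe 2 and Cyp1a2 probe 2), against 2714 of all probes. Ugt1a6a probe 1 differed by 0.62 (SE 0.14, 95% interval 0.30 to 0.94, limma adjusted p = 0.0801), with all 3 DMBA arrays above all acetone arrays. It passed the test in 5 of 15 alternatives, among them without DMBA replicate 3 (0.57, limma adjusted p = 0.00481), without DMBA replicate 1 (0.73, limma adjusted p = 0.0311) and without acetone replicate 1 (0.79, limma adjusted p = 0.0334). Nqo1 probe 1 differed by 0.20 (95% interval 0.03 to 0.37, limma adjusted p = 0.358), and Ahrr by 0.03 (95% interval -0.15 to 0.21, limma adjusted p = 0.952). Without DMBA replicate 3 these were 0.20 (limma adjusted p = 0.29) and 0.04 (limma adjusted p = 0.919), and Ugt1a6a probe 1 was the 1 member probe called. In the authors' deposited table the acetone-over-DMBA ratio was 0.711 for Ugt1a6a probe 1 and 0.909 for Nqo1 probe 1, with unadjusted p of 0.00211 and 0.00136.

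The 2 comparisons share the acetone arrays, so their values are given side by side and not correlated. The median difference over the 15 member probes was 0.08 for BaP and 0.09 for DMBA, beside -0.0014 and -0.0057 over all probes. These medians include the 9 probes at or near the floor. The BaP median is the value of Cyp1a2 probe 1, under the floor on every array, and the DMBA median that of Arnt probe 1. Arrays of the groups did not overlap, with the treated group higher, for 5 member probes with BaP (11.7% of all probes) and 4 with DMBA (7.93% of all probes). They did not overlap, with the treated group lower, for 1 probe with BaP (12.4% of all probes) and 1 with DMBA (8.02% of all probes), both under the floor. Among the higher probes, Arnt probe 2 (with both compounds) and Cyp1a2 probe 2 (with DMBA) were also at or near the floor.

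**Figure D3:**
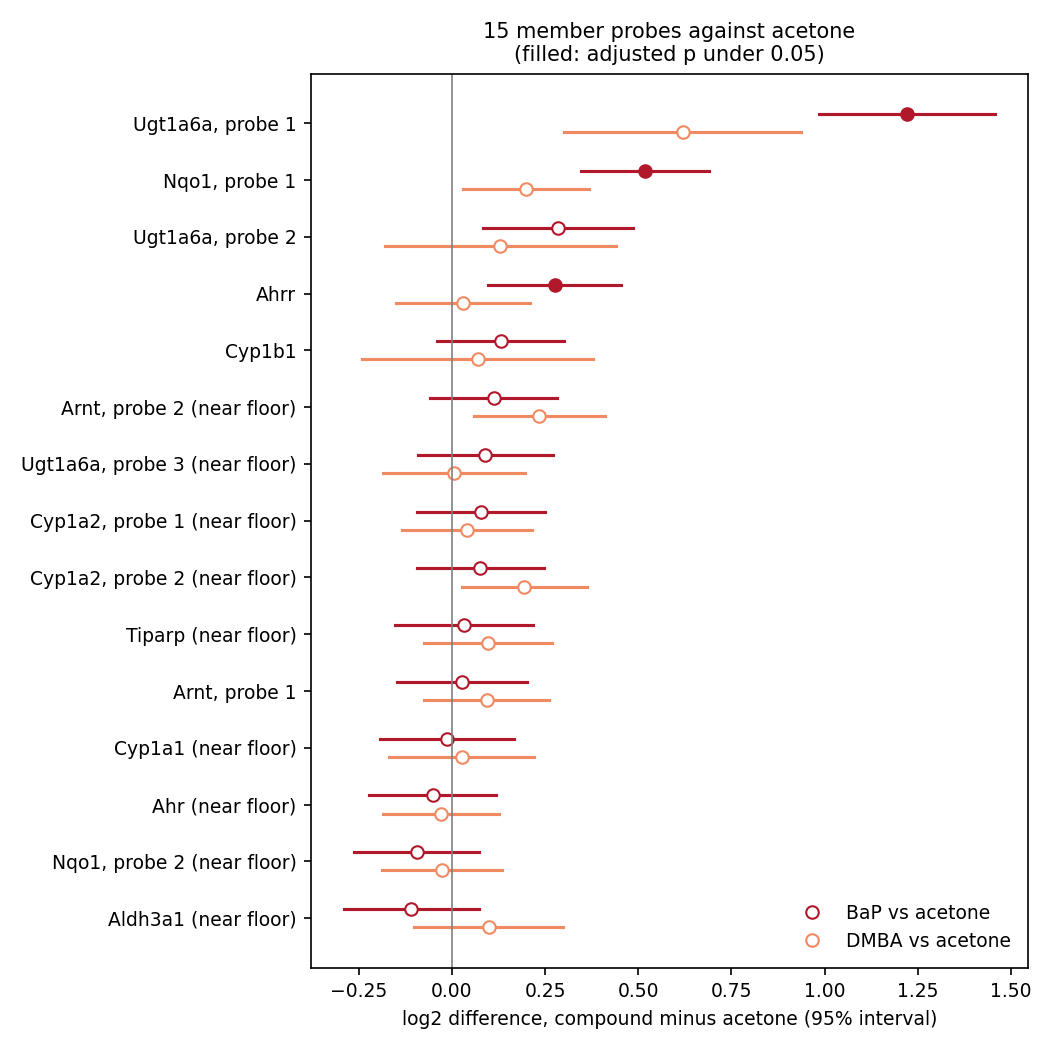
Log2 difference from acetone (horizontal axis) of the 15 member probes for BaP and DMBA, with 95% intervals; filled points have an adjusted p under 0.05 (limma, all probes). Filled points are Ugt1a6a probe 1, Nqo1 probe 1 and Ahrr with BaP, and none with DMBA.

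Set against DMBA cultures as dosed, BaP cultures differed in 1 of 15 member probes, where 1.12% of all probes were called and 0.506% were higher. Ugt1a6a probe 1 was higher by 0.60 (SE 0.12, 95% interval 0.35 to 0.86, limma adjusted p = 0.0312). Of the 6 fits without 1 array, only the fit without DMBA replicate 3 kept that call (0.65, limma adjusted p = 7.69e-04), and the others gave limma adjusted p between 0.0587 and 0.212. With arrays scaled by their medians the difference was 0.22 (limma adjusted p = 0.228), where the probes above the floor shifted by -0.28. Before normalisation the mean signals of Ugt1a6a probe 1 were 261 with BaP and 265.3 with DMBA. Nqo1 probe 1 differed by 0.32 (95% interval 0.15 to 0.49, limma adjusted p = 0.096), and Ahrr by 0.25 (95% interval 0.04 to 0.45, limma adjusted p = 0.35). Without DMBA replicate 3 these were 0.32 (limma adjusted p = 0.0627) and 0.24 (limma adjusted p = 0.266). Arrays did not overlap for 3 member probes with BaP higher (8.14% of all probes) and 3 with BaP lower (7.69% of all probes). Those lower were Cyp1a2 probe 2, Aldh3a1 and Arnt probe 2, all at or near the floor.

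Other genes of the pathway were read from lists chosen with earlier results of these data known, each gene by its brightest probe. A gene counts as measured here if a probe matched it, whatever its level. Of all 17889 genes, 9114 stood above the floor on all 9 arrays, as did 11 of the 16 reported targets. So did 9 of 9 genes for other steps of metabolism and 10 of 11 Nrf2 targets. Genes not above the floor throughout may have changed without a call. Of 16 measured genes reported elsewhere as receptor targets, 7 rose with BaP and none fell, beside 4.57% of all genes higher and 5.58% lower, and the list's median difference was 0.12, beside -0.0049 over all genes. Serpinb2, an inhibitor of plasminogen activators, had levels of 8.42, 8.55 and 8.59 in BaP cultures, 6.67, 6.55 and 6.85 in DMBA cultures, and 6.34, 6.40 and 6.28 in acetone cultures. Its arrays did not overlap between the groups, and BaP was 4.53-fold above acetone (log2 difference 2.18, SE 0.08, limma adjusted p = 1.66e-15). Xdh, xanthine dehydrogenase, had 10.62, 10.67 and 10.53 in BaP cultures, 9.18, 9.58 and 9.35 in DMBA cultures, and 9.66, 9.70 and 9.68 in acetone cultures. It was above acetone with BaP by 0.93 (limma adjusted p = 2.11e-08), while every DMBA array was below every acetone array, with a DMBA difference of -0.31 that did not pass the test (limma adjusted p = 0.231; -0.30 and 0.0925 without DMBA replicate 3).

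Ugt1a10, of the same locus as Ugt1a6a, had 10.35, 10.26 and 10.30 in BaP cultures, 9.52, 9.72 and 9.92 in DMBA cultures, and 9.60, 9.51 and 9.51 in acetone cultures, a BaP difference of 0.76 (limma adjusted p = 4.4e-07). Scin, an actin-severing protein, was higher with BaP by 0.65 (limma adjusted p = 2.08e-05), and Cdkn1b, a cell cycle inhibitor, by 0.34 (limma adjusted p = 0.00711). Nfe2l2, which encodes Nrf2, rose with both compounds, by 0.52 with BaP (limma adjusted p = 1.49e-04) and by 0.58 with DMBA (limma adjusted p = 0.0119; 0.65 and 2.88e-05 without DMBA replicate 3). It was the 1 gene of this list called with DMBA, where 0.721% of all genes were higher. With arrays scaled by their medians 3 genes of the list were higher with BaP (Serpinb2, Xdh and Scin) and 3 were lower, beside 429 and 6075 of all probes. In that setting Nfe2l2 was not called with DMBA. Nfe2l2 with DMBA also missed the threshold without acetone replicate 2, acetone replicate 3 or DMBA replicate 2 (limma adjusted p of 0.128, 0.091 and 0.0849).

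BaP against DMBA, 4 genes of this list were higher and none lower, beside 0.62% of all genes higher and 0.716% lower: Serpinb2 by 1.83, Xdh by 1.24, Scin by 0.59 and Ugt1a10 by 0.59 (limma adjusted p of 1.95e-06, 1.43e-04, 0.0171 and 0.0203). Without DMBA replicate 3 the count was 5, with the 4 at 1.91, 1.23, 0.51 and 0.69 in the same order. Calls over all probes also rose in that setting, from 288 to 892 in either direction. Serpinb2 and Xdh passed the test in all 15 alternatives of that comparison, Scin in 9 and Ugt1a10 in 8.

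Of 11 measured genes of the receptor's complex and coregulators, among them Hsp90ab1, Ptges3 and Ep300, limma called 0 in each of the 3 comparisons. Only 6 of the 11 stood above the floor on all 9 arrays, so the others give no firm reading. At an unadjusted p under 0.05 there was 1 with BaP, 1 with DMBA and 0 between the compounds. Over all 25697 probes these counts were 5342, 2714 and 2735. With arrays scaled by their medians 4 genes of the list were called lower with BaP, where 6075 of all probes were called lower. Of 8 measured ovarian genes linked to the receptor, 1 rose with BaP and 1 fell, beside 4.57% of all genes higher and 5.58% lower. Only 4 of the 8 stood above the floor on all 9 arrays. Ccnd2, a granulosa cell cyclin, was higher by 0.67 (limma adjusted p = 3.8e-05), and Esr2, the oestrogen receptor of granulosa cells, was lower, with a difference of -0.32 (limma adjusted p = 0.0126). With arrays scaled by their medians Ccnd2 gave 0.19 and was not called (limma adjusted p = 0.152), and Esr2 was called in 12 of 15 alternatives. None of the 8 was called with DMBA by limma, with 3 at an unadjusted p under 0.05, beside 2714 of all 25697 probes. Without DMBA replicate 3 Ccnd2 was called higher with DMBA (0.65, limma adjusted p = 1.88e-04) and Cyp19a1, aromatase, lower (-0.37, limma adjusted p = 0.0174). In that setting 1132 of all probes were called in either direction. Cyp19a1 stood above the floor on only 6 of 9 arrays. Its level on DMBA replicate 2 (6.06) was under that array's floor of 6.16, so the size of its difference is uncertain. Bax, the apoptosis effector tied to the receptor in oocytes, was called in neither.

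Of 9 measured genes for other steps of hydrocarbon metabolism, 1 rose and 2 fell with BaP, beside the same 4.57% and 5.58% of all genes. Ephx1, the epoxide hydrolase that acts between the CYP1 steps, had 9.70, 9.64 and 9.68 in BaP cultures, 9.62, 9.47 and 9.89 in DMBA cultures, and 9.18, 9.19 and 9.14 in acetone cultures. BaP against acetone gave 0.50 for Ephx1 (limma adjusted p = 1.26e-04), but 0.02 (limma adjusted p = 0.924) with arrays scaled by their medians. DMBA against acetone gave 0.49 for Ephx1 (limma adjusted p = 0.0582), its 3 arrays also above all acetone arrays, and 0.37 (limma adjusted p = 0.0124) without DMBA replicate 3. The electron carriers Cyb5r3 and Cyb5a were lower, with differences of -0.53 and -0.34 (limma adjusted p of 8.48e-04 and 0.024), and were called in 14 and 8 of 15 alternatives. With all DMBA arrays no gene of the list was called with DMBA by limma. At an unadjusted p under 0.05 there were 2, beside 2714 of all 25697 probes.

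Nqo1 is also a target of Nrf2. Of 11 other measured Nrf2 targets, 0 rose and 2 fell with BaP, beside 4.57% of all genes higher and 5.58% lower. Srxn1, which repairs peroxiredoxins, had 8.10, 7.96 and 8.0 in BaP cultures, 8.40, 8.47 and 8.43 in DMBA cultures, and 8.52, 8.47 and 8.52 in acetone cultures. It was lower with BaP than with acetone, with a difference of -0.48 (limma adjusted p = 2.64e-04), and lower than with DMBA, with -0.41 (limma adjusted p = 0.0337; -0.42 and 0.0133 without DMBA replicate 3). Hmox1, haem oxygenase, gave -0.39 against acetone (limma adjusted p = 0.0115). Against acetone Srxn1 was called in all 15 alternatives and Hmox1 in 10, and Srxn1 against DMBA in 6. With DMBA limma called 0 of the 11, with 2 at an unadjusted p under 0.05, beside 2714 of all 25697 probes. Without DMBA replicate 3 limma called 1 (Me1, malic enzyme, 0.30, limma adjusted p = 0.0491), beside 1132 of all probes.

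**Figure D4:**
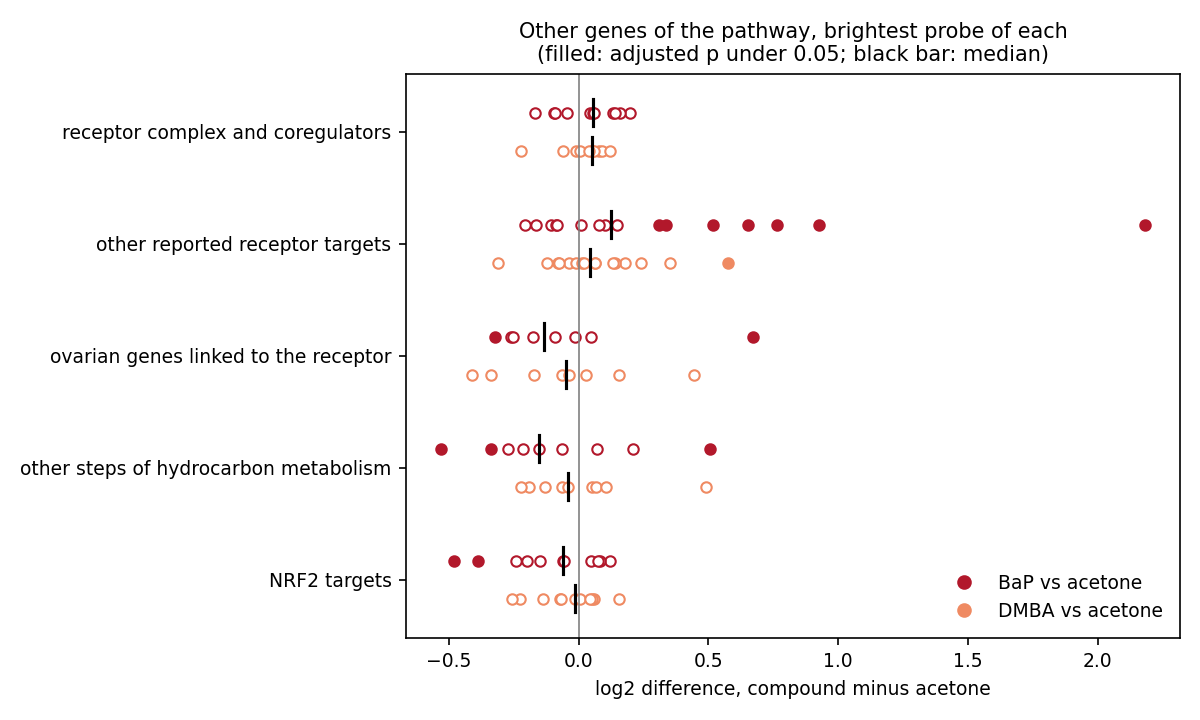
Log2 difference from acetone (horizontal axis) of the measured genes of 5 pathway lists, brightest probe of each, for BaP and DMBA. Filled points have an adjusted p under 0.05 (limma, all probes) and black bars are list medians; the 7 filled BaP points among other reported targets all lie to the right of 0, and 1 DMBA point (Nfe2l2) is filled.

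Markers of cell types moved with BaP in the same arrays. Of 10 macrophage and leukocyte markers, 6 were lower with BaP than with acetone, beside 5.58% of all genes, and 7 lower than with DMBA, beside 0.716% of all genes. With DMBA 2 of them, C1qb and C1qc, were higher than with acetone, by 0.88 and 0.65, beside 0.721% of all genes, and the mean level of the list ranged over 7.44 to 7.53 in BaP cultures, 8.08 to 8.18 in DMBA cultures and 7.82 to 7.93 in acetone cultures. Of 7 stroma markers 2 were higher with BaP (Col3a1 and Lum), beside 4.57% of all genes, with mean list levels of 10.36 to 10.41 in BaP cultures, 10.08 to 10.33 in DMBA cultures and 10.23 to 10.31 in acetone cultures. Of 10 oocyte markers 4 were lower and 1 was higher with BaP, and 2 were lower with DMBA, beside 0.335% of all genes lower with DMBA, with mean list levels of 8.97 to 9.09 in BaP cultures, 9.05 to 9.20 in DMBA cultures and 9.21 to 9.24 in acetone cultures. The 1 higher with BaP was Ddx4, which was under the floor on every acetone array (6.19, 6.13 and 6.03). Granulosa markers had 1 higher and 1 lower with BaP, surface epithelium markers 2 lower, endothelium markers 1 higher and liver markers 0 called by limma (0 also at an unadjusted p under 0.05). With DMBA 1 surface epithelium marker was higher. Without DMBA replicate 3, limma called 8 macrophage and leukocyte markers lower for BaP against DMBA, and 3 higher for DMBA against acetone. In that setting 892 and 1132 of all 25697 probes were called in either direction. The part of these shifts in the differences of Ugt1a6a, Nqo1 and Ahrr was not tested.

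Over the 9 arrays, the genes whose level followed Ugt1a6a probe 1 most closely, among 12072 named probes above the floor, were Pcgf3 (Pearson r = 0.98), Acaa2 (r = 0.98), Hexdc (r = 0.96), Abi1 (r = 0.96) and Irf9 (r = 0.96). Those closest to Nqo1 probe 1 were Ctsk (r = 0.99), Hsd11b1 (r = 0.98), Scp2 (r = 0.98), Btbd3 (r = 0.97) and Igf2 (r = 0.97). The lists share no gene. These correlations are descriptions: the 9 points fall into the 3 treatment groups and share the normalisation. Ahr was under the floor on all arrays, so no genes were ranked by likeness to it.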

How the data were processed

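Total RNA of cultured ovaries was measured on 9 arrays in 3 groups of 3, with groups taken from the labels. The deposited table of non-normalized signal intensity per probe was used for all levels. The authors also deposited log2 values of the same probes, made with lumi per the submitters' processing notes (version not given in the sources used here), and tables of ratios with p-values of their own tests per the file headers. The files of intensities name no gene, so 25649 of 25697 probes were paired with the named rows by their values (within 0.0001 on the log2 scale, the next row at least 5 times farther), and 48 stayed unnamed. Names were updated through RefSeq (GRCm38.p6) by accession for 23692 probes, by symbol for 852 and by synonym for 434, and 671 kept the deposited name.

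Intensities were background-corrected (normexp, offset 50), quantile-normalised over the 9 arrays and log2-transformed, so differences of dim probes are understated. Each comparison was fitted to all probes on its own 6 arrays with limma 3.58.1 (lmFit, eBayes, two-sided) in R 4.3.3, with Benjamini-Hochberg adjustment over all probes and a threshold of 0.05. The script was checked on simulated data. The number of arrays limits the precision.

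All probes of the 10 genes were named whatever their values, and, of each pathway list, the called genes, up to 6 per comparison by size. For Ugt1a6a, Nqo1 and Ahr, up to 5 genes of highest correlation were named. The members and lists were chosen with earlier results of these data known. Genes of the lists that matched no probe included Ncoa1, Ugt1a7c, Slc7a5, Cdk4, Gsr, Inhbb and Muc16. The alternatives were the authors' log2 values, median scaling, an offset of 16, no background correction, all 9 arrays in one fit, 1 probe per gene, probes above the floor, the replicate block, limma's trend and leaving out each array. A beadchip block was not run, since the headers name no chip.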

Additional observations from a re-analysis of the deposited data

Results flagged for a closer look

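The difference between BaP and DMBA cultures, tested directly, was past the threshold for 1 member probe and for 5 genes of the pathway lists, which is what drew attention to them. Beyond these, 7 macrophage and leukocyte markers and 1 surface epithelium marker were lower with BaP than with DMBA. The values are log2 differences, BaP minus DMBA, with limma adjusted p over all probes. Ugt1a6a probe 1 gave 0.60 (adjusted p = 0.0312 in limma), with levels of 8.33 ± 0.17 in BaP cultures and 7.73 ± 0.19 in DMBA cultures (SD, n = 3 each). Its mean signals before normalisation were 261 with BaP and 265.3 with DMBA, so this difference was seen only after normalisation. The call held in 6 of 15 alternatives. Serpinb2 gave 1.83 and Xdh 1.24, with limma adjusted p of 1.95e-06 and 1.43e-04. Scin gave 0.59 and Ugt1a10 gave 0.59, with limma adjusted p of 0.0171 and 0.0203. Srxn1 gave -0.41, with a limma adjusted p of 0.0337. Doses differed between the compounds, so these values compare the cultures as dosed.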

How the results depend on the processing

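With BaP against acetone, 2 to 4 member probes were called in every alternative. Ugt1a6a probe 1 (0.84 to 1.48) and Nqo1 probe 1 (0.33 to 0.76) were called in all 15, and Ahrr in 3 of 15. With DMBA, 0 member probes were called, and 1 with all 9 arrays in one fit and 1 with limma's trend (0 to 1 when leaving out 1 array). With BaP against DMBA, 1 member probe was called, 2 with all 9 arrays in one fit, and 0 with the authors' log2 values, with median scaling, with an offset of 16 and with no background correction (0 to 1 when leaving out 1 array). Calls over all probes moved more. For BaP against acetone there were 2518, but 6504 with median scaling (429 higher and 6075 lower, against 1258 higher and 1260 lower), 944 with an offset of 16 (555 higher and 389 lower), 1502 with all 9 arrays in one fit and 1446 to 2391 when leaving out 1 array, lowest without acetone replicate 2. For DMBA against acetone there were 270 (206 higher and 64 lower), but 126 with the authors' log2 values, 4 with median scaling (2 higher and 2 lower), 150 with no background correction, 462 with all 9 arrays in one fit and 26 to 1132 when leaving out 1 array, lowest without acetone replicate 2 and highest without DMBA replicate 3. For BaP against DMBA there were 288 (130 higher and 158 lower), but 2944 with median scaling (84 higher and 2860 lower), 145 with an offset of 16 (50 higher and 95 lower), 534 with all 9 arrays in one fit and 72 to 892 when leaving out 1 array, lowest without BaP replicate 2 and highest without DMBA replicate 3. The cause was not tested.

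Replicate numbers showed no shared pattern between groups: deviations of same-numbered arrays of different groups correlated between -0.26 and 0.18. Acetone replicate 3 and BaP replicate 1, of different numbers, reached 0.29. With 3 arrays per group this check cannot settle whether samples were paired. With the replicate number as a block, 2 member probes were called for BaP (1960 of all probes), 0 for DMBA (304 of all probes) and 1 for BaP against DMBA (147 of all probes). The stricter floor left 4 member probes above it on all 9 arrays in place of 6. Signals near the floor limit what Cyp1a1, Cyp1a2, Tiparp, Aldh3a1 and Ahr can show.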
